A study of Mus musculus with 7 samples.

Results

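The genes described here encode the enzymes of oxidative phosphorylation, followed in γδ lineage thymocytes of mice. The members were all 113 non-control probes whose gene name on the array begins with Nduf, Uqcr, Atp5 or Sdh (Sdha to Sdhd), or with Cox and a digit from 4 to 8. They make up 0.274% of 41174 non-control probes and name 82 of 27962 gene names. The rule used names and no measured value. RNA of flow-sorted thymocytes of BALB/c mice was hybridised to 7 Agilent 2-colour arrays. On every array the first RNA came from DN4 cells of KN6 Tg Rag2-/- mice, sorted as Lig+ (4 arrays) or Lig- (3 arrays), and the second from DN3 cells of non-Tg Rag2-/- mice. The KN6 transgene encodes a γδ receptor whose known ligands are the class I-like proteins H2-T10 and H2-T22, and Lig+ and Lig- name the presence and absence of ligand. All 3 populations lack Rag2, which is needed for the receptor's own rearrangement, and all transgenic cells carry the same receptor. The labels give no age and do not say how Lig- cells came to lack ligand. The labels of the second scan day's samples omit DN4. Replicates are biological according to the series text, and whether the DN3 RNA came from 1 preparation is not stated.

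Oxidative phosphorylation makes most ATP in resting cells. Complexes I and II pass electrons from NADH and succinate to ubiquinone, complex III passes them to cytochrome c, and complex IV passes them to oxygen. The proton gradient that complexes I, III and IV build drives complex V, the ATP synthase. DN3 is the stage at which thymocytes are tested for a working receptor chain, and cells that pass grow and divide, which raises their demand for energy and building blocks.

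A value below is the log2 ratio of DN4 over DN3 after background correction and loess, so 1 unit is a doubling. Fits used limma over all 34889 probes detected (well above background, DN4 or DN3) on 3 arrays or more, with a term for dye orientation, and p was adjusted over those probes by Benjamini-Hochberg. A gene passed at an adjusted p under 0.05 and is represented by its brightest probe. Of the members, 110 probes of 81 genes entered the fit; a probe each of Ndufab1 and Ndufs1 did not, nor the only probe of Cox8c, a testis isoform. The members were well expressed: 107 of 113 probes (94.7%) were well above background in both channels on every array, against 67.6% of all probes. A name does not always mean a subunit. Cox4nb is now called Emc8 and Atp5s is now called Dmac2l, and both are kept apart below. Ndufaf1, a complex I assembly factor, is counted with complex I.

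The sorted cells and the arrays' quality bear on every value. The 5 DN3 markers (Il2ra, Ptcra, Rag1, Dntt, Notch3) fell in both groups, with a median log2 change of -5.00 in Lig+ and -3.86 in Lig- cells. Dntt and Notch3 were lower in Lig+ than in Lig- cells (-3.48 and -1.88, adjusted p 0.0164 and 0.0458), and the other 3 did not pass between groups. Dntt stood at -0.06 on Lig- replicate 1 and at -3.23 and -3.10 on Lig- replicates 2 and 3. All 6 T lineage markers, Cd3e, Cd3g and Lck among them, were well above background in both channels on every array. Their mean log2 ratio was 0.35 and 0.54 on the Alexa 647 arrays named below and from -1.49 to -0.91 on the others. Of these 6, 1 rose and 3 fell in Lig+ cells, and 2 rose and 2 fell in Lig- cells. Thy1 alone passed between groups and was lower in Lig+ than in Lig- cells (-1.08, adjusted p = 0.00854). Macrophage and monocyte markers were also above background on every array, with a mean log2 ratio from -0.98 to -0.02 in Lig+ and from -1.16 to -0.86 in Lig- arrays. Of 6 such markers 1 rose and 4 fell in Lig+ cells, and 0 rose and 5 fell in Lig- cells; the one that rose was Itgam (1.71, adjusted p = 0.00154), which was 1.61 higher in Lig+ than in Lig- cells (adjusted p = 0.0272). Granulocyte markers fell for 3 of 5 in Lig+ and 1 of 5 in Lig- cells, with list means from -1.39 to -0.60 and from -0.62 to -0.12, and Ngp was lower in Lig+ than in Lig- cells (-0.56, adjusted p = 0.0354). Erythroid markers fell for 1 of 5 in Lig+ and 0 of 5 in Lig- cells, and dendritic markers for 0 of 4 and 1 of 4; none of either list rose. Of 6 markers of thymic epithelium and stroma, 1 rose and 1 fell in Lig+ cells, and 1 rose and 3 fell in Lig- cells. The part of those cells in the results was not tested, and fewer cells of a type cannot be told apart from less RNA per cell. Replicate 1 of each group carried DN4 RNA in Alexa 647 and the other 5 arrays carried it in Alexa 555. The dye term passed for 11 of 110 member probes, against 0.828% of all probes. Among 2117 other probes at least as bright as the lower quartile of the members it passed for 10.4%. All arrays of the second scan day carried DN4 RNA in Alexa 555, so every value for that day alone comes from a fit without a dye term. Of the Lig- arrays only replicate 3 was scanned that day. Either day alone leaves too few arrays for its p to measure the spread between replicates. The fit weighs the 2 orientations alike, so each group's single Alexa 647 array counts for much of its value.

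Taken over all members, oxidative phosphorylation genes moved in both directions and by little. In Lig+ cells, 30 of 81 genes passed against DN3 (19 rose and 11 fell), while 35.8% of all genes passed (17.2% rose and 18.7% fell). The share of members that passed, 37.0%, lay near that background. By probe it was 35.5% in Lig+ and 24.5% in Lig- cells, while 45.5% and 38.7% passed among 2117 other probes at least as bright as the members' lower quartile. Their median change was 0.07, against 0.00 over all genes. In Lig- cells, 17 of 81 genes passed (6 rose and 11 fell), against 30.9% of all genes (16.2% rose and 14.7% fell), and the median was -0.01. By probe, 39 of 110 passed in Lig+ (23 rose, 16 fell; 36.6% of all probes passed) and 27 of 110 in Lig- (10 rose, 17 fell; 31.8% of all). Changes of at least 1 log2 unit passed for 2 of 110 member probes in Lig+ (10.8% of all probes) and 4 of 110 in Lig- (9.77%). By gene it was 3 of 81 in Lig- (9.91% of all genes).

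The split into rises and falls in Lig+ cells depended on the scaling. With Agilent's processed signals 12 member probes rose and 17 fell, and with median centring in place of loess 10 rose and 10 fell. In Lig- cells median centring gave 3 rises and 20 falls. Leaving out Lig+ replicate 1 left 6 member probes that passed in Lig+ (16.1% of all probes), and leaving out Lig- replicate 1 left 4 in Lig- (11.1% of all probes). Without Lig+ replicate 3 or Lig- replicate 1, the Lig+ counts were 21 and 22 (30.2% and 28.7% of all probes). Of the 30 Lig+ calls, 5 (Atp5s, Cox5a, Cox6b2, Cox7a2 and Ndufa12) passed whichever array was left out, and of the 17 Lig- calls 4 did (Atp5s, Cox7a2, Cox7c and Uqcrq). On every array of its group, the ratio had 1 direction for 18 of the 30 genes in Lig+ and for 15 of the 17 in Lig-.

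**Figure D1:**
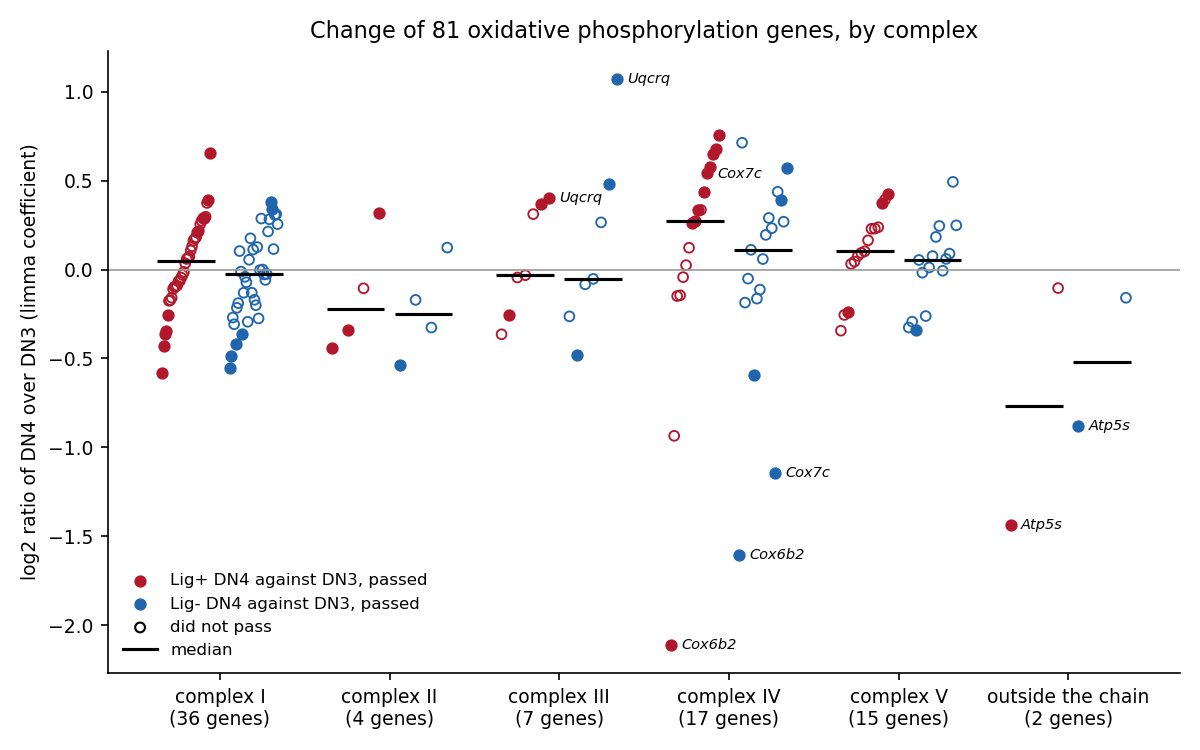
Each point is 1 of 81 genes, with its log2 change of DN4 over DN3 in Lig+ (red) or Lig- cells (blue), arranged by respiratory complex; filled points passed at an adjusted p under 0.05 and black lines are medians. Most genes lie near 0, and Cox6b2, Cox7c, Uqcrq and Atp5s stand at the edges.

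Complex I, which takes electrons from NADH, had 36 genes measured, its assembly factor Ndufaf1 included. In Lig+ cells 5 rose and 5 fell, Ndufaf1 among the latter, where 17.2% of all genes rose and 18.7% fell. In Lig- cells 2 of the 36 rose and 4 fell, where 16.2% of all genes rose and 14.7% fell. None of the 36 passed between Lig+ and Lig- cells in limma's fit, where 11.2% of all genes passed. At an unadjusted p under 0.05 in that fit, 5 were higher and 0 lower, and no share of all genes is given at that level. Of its 7 core subunits, which carry the redox centres, Ndufs3 rose in both groups, by 0.29 (SE 0.074, adjusted p = 0.0228) in Lig+ and 0.34 (SE 0.081, adjusted p = 0.0207) in Lig- cells. Ndufs7 fell in Lig+ (-0.36, adjusted p = 0.0248) and Ndufs8 in Lig- cells (-0.36, adjusted p = 0.0133); both carry iron-sulfur clusters that lead to quinone. Without Lig+ replicate 1, Ndufs3 and Ndufs7 stood at 0.29 and -0.48 in Lig+ cells with adjusted p of 0.216 and 0.0937. Without Lig- replicate 1, Ndufs3 and Ndufs8 stood at 0.34 and -0.37 in Lig- cells with adjusted p of 0.22 and 0.164. In Lig+ cells, Ndufs3 and Ndufs7 were also lost on leaving out Lig+ replicate 3, Lig+ replicate 4 or Lig- replicate 1 (adjusted p from 0.0567 to 0.0707). In Lig- cells Ndufs3 was lost without Lig+ replicate 1 or Lig- replicate 3 (adjusted p 0.0565 and 0.0692) and Ndufs8 without Lig- replicate 3 (adjusted p = 0.0552). No sign changed in these fits.

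Among the accessory subunits, which surround the core and steady it, Ndufa12 showed the largest fall. Its ratio was -0.25, -0.60, -0.95 and -0.83 on the 4 Lig+ arrays and -0.57, -0.58 and -0.66 on the 3 Lig- arrays. All 7 values were below 0 and the groups overlapped. The fit gave -0.58 (SE 0.098, adjusted p = 0.00444) in Lig+ and -0.55 (SE 0.11, adjusted p = 0.00981) in Lig- cells. The Lig+ call held under all 20 alternatives, with adjusted p up to 0.0285, and the Lig- call was lost without Lig- replicate 1 (-0.35, adjusted p = 0.214). Ndufa12 has 3 probes, with changes from -0.58 to -0.26 in Lig+ and from -0.65 to -0.55 in Lig- cells.

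Ndufa1, an X-linked accessory subunit of the membrane arm, was the largest rise of complex I. Its ratio was 1.04, 0.53, 0.31 and 0.31 on the Lig+ arrays and 0.31, 0.09 and 0.15 on the Lig- arrays. Every array was above 0, and the Alexa 647 array was highest in each group. The change was 0.66 in Lig+ (SE 0.089, adjusted p = 0.0017) and 0.26 in Lig- cells (adjusted p = 0.0948, not passed). Without Lig+ replicate 1 the Lig+ value was 0.48 with adjusted p = 0.0528. The difference between groups, 0.40, did not pass (SE 0.13, adjusted p = 0.103).

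The remaining complex I calls were small. Ndufa6 rose in both groups (0.29 in Lig+, adjusted p = 0.0205; 0.38 in Lig-, adjusted p = 0.0125) and Ndufb5 fell in both (-0.25, adjusted p = 0.0188; -0.42, adjusted p = 0.00457). Ndufa13, also known as Grim19, rose in Lig+ (0.39, adjusted p = 0.0351). Ndufab1, the acyl carrier protein of mitochondria, fell in Lig+ cells (-0.35, adjusted p = 0.0453), and another of its probes fell in both groups (-0.70 and -0.65). Ndufaf1, the assembly factor, fell in Lig+ (-0.43, adjusted p = 0.0388) and in Lig- cells (-0.48, adjusted p = 0.0395). Without the Alexa 647 array of the group, adjusted p lay from 0.175 to 0.488 for Ndufb5, Ndufaf1, Ndufa6, Ndufab1 and Ndufa13 in Lig+, and was 0.11 for Ndufb5, 0.163 for Ndufa6 and 0.37 for Ndufaf1 in Lig- cells. The signs did not change. Dropping Lig- replicate 2 also ended the Lig- call of Ndufa6 (adjusted p = 0.0646), and every other single Lig+ or Lig- array ended at least 1 of these calls.

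Complex II, succinate dehydrogenase, is also an enzyme of the citric acid cycle, and its 4 genes did not move as a unit. Sdhd, a membrane anchor, fell in both groups. Its ratio was -0.68, -0.34, -0.21 and -0.18 on the Lig+ arrays and -0.64, -0.53 and -0.26 on the Lig- arrays. All 7 values were below 0, and both groups were closer to 0 on the second scan day. The change was -0.44 in Lig+ (SE 0.076, adjusted p = 0.00467) and -0.53 in Lig- (SE 0.083, adjusted p = 0.00388).

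Sdhb, the iron-sulfur subunit, rose in Lig+ cells, with ratios of 0.25, 0.49, 0.35 and 0.38 on the Lig+ arrays and -0.02, 0.27 and 0.22 on the Lig- arrays. The change was 0.32 in Lig+ (SE 0.059, adjusted p = 0.00644) and 0.12 in Lig- (adjusted p = 0.204). The 2 groups overlapped by a narrow margin. Sdhc, the other anchor, fell in Lig+ cells (-0.34, adjusted p = 0.0218), and Sdha, the flavoprotein that oxidises succinate, stood at -0.11 in Lig+ and -0.33 in Lig- cells without passing. A second Sdha probe fell in Lig- cells (-0.39, adjusted p = 0.0152). Sdha was negative on the first scan day and positive on the second in Lig+ cells (-0.43 and -0.25, then 0.21 and 0.39). The second Sdhc probe was not well above background in any DN3 channel and is given no fold. Without Lig+ replicate 1 the Lig+ changes were -0.37 for Sdhd, 0.28 for Sdhb and -0.20 for Sdhc (adjusted p 0.126, 0.155 and 0.38). Sdhc was also lost without Lig+ replicate 3 (adjusted p = 0.0681), and Sdhd was lost in Lig- cells without Lig- replicate 1 (-0.61, adjusted p = 0.0513).

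Complex III held the member with the largest rise, Uqcrq, a small subunit that contacts cytochrome b and ubiquinone. Its ratio was 0.74, 0.37, -0.08 and -0.07 on the 4 Lig+ arrays and 1.38, 0.83 and 0.68 on the 3 Lig- arrays. All Lig- arrays were above 0, the Lig+ arrays of the second scan day were at about 0, and the groups overlapped at 0.74 and 0.68. Uqcrq rose by 1.07 in Lig- (2.10-fold, SE 0.11, adjusted p = 0.000632), which held under all 20 alternatives, and by 0.40 in Lig+ cells (SE 0.097, adjusted p = 0.0189). The Lig+ call was lost without Lig+ replicate 1 (adjusted p = 0.207) and without Lig- replicate 1 (adjusted p = 0.0527). The second Uqcrq probe gave 0.26 in Lig+ and 0.55 in Lig- cells, and neither passed.

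Uqcrh, the hinge protein of complex III, rose in both groups, with 0.37 in Lig+ (adjusted p = 0.0155) and 0.48 in Lig- cells (adjusted p = 0.00945). Its ratio was 1.21, -0.46, -0.29 and -0.56 on the Lig+ arrays and 1.21, -0.43 and -0.12 on the Lig- arrays. It was above 0 on both Alexa 647 arrays and below 0 on the 5 others, and its dye term was 0.79 (adjusted p = 0.0056). Without the dye term Uqcrh stood at -0.02 in Lig+ cells, and without Lig+ replicate 1 at 0.30 (adjusted p = 0.242) and without Lig+ replicate 3 at 0.33 (adjusted p = 0.0506) there, and without Lig- replicate 1 at 0.55 (adjusted p = 0.0934) in Lig-. Uqcrb fell in both groups, by 0.25 in Lig+ (adjusted p = 0.0201) and by 0.48 in Lig- cells (adjusted p = 0.00274), and was below 0 on all 7 arrays. The Lig+ call of Uqcrb was lost without either Alexa 647 array (adjusted p 0.219 and 0.0646), and its Lig- call without Lig- replicate 1 (adjusted p = 0.0711). The core proteins Uqcrc1 and Uqcrc2 and the Rieske protein Uqcrfs1 did not pass in either group.

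Complex IV is cytochrome c oxidase. Its subunits fall into widely expressed genes and isoforms that are used mainly in muscle, testis or lung. In Lig+ cells 8 of 11 widely expressed genes rose and 0 fell (median 0.34), where 17.2% of all genes rose. At an unadjusted p under 0.05 in limma's fit, 8 were higher and 0 lower. Among the 2117 other probes at least as bright as the lower quartile of all members, 24.1% rose. Those probes were not matched to the brightness of the 11 genes. In Lig- cells 2 of the 11 rose and 1 fell (median 0.20), where 16.2% of all genes and 21.3% of those probes rose. The dye term passed for 5 of the 11. All 11 were above 0 on Lig+ replicate 1 and 9 of 11 on Lig- replicate 1, the Alexa 647 arrays. On Lig+ replicates 2, 3 and 4 there were 7, 6 and 4 above 0, and on Lig- replicates 2 and 3 there were 4 and 3. The count of 8 rises became 2 without Lig+ replicate 1, 4 without Lig+ replicate 3, 5 with Agilent's processed signals or with median centring, and 3 without the dye term. With the second scan day alone and no dye term 4 rose and 2 fell.

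**Figure D2:**
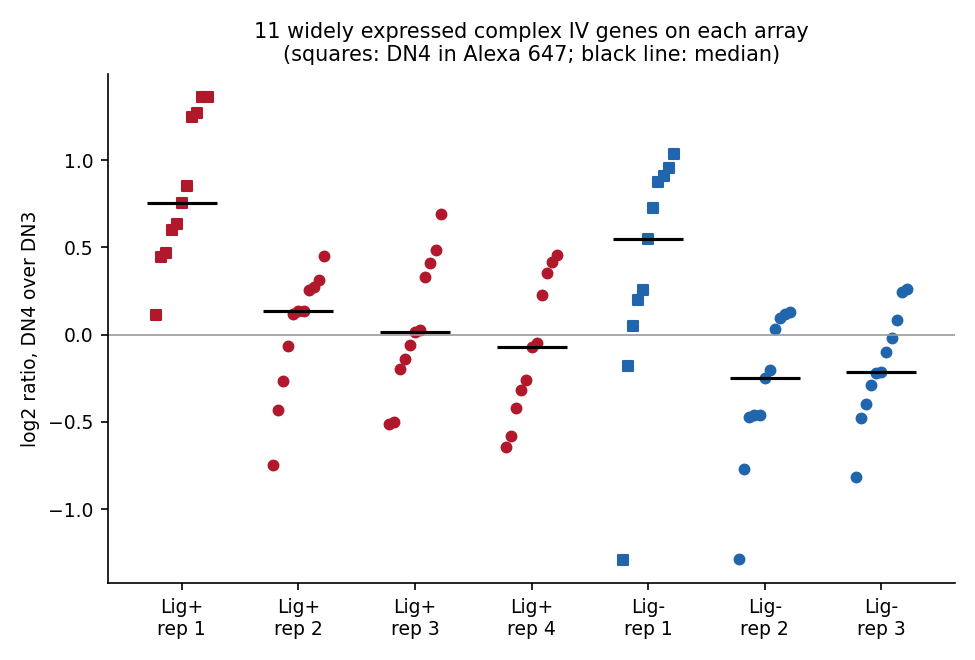
Each point is 1 of 11 widely expressed complex IV genes on 1 array, as the log2 ratio of DN4 over DN3; squares mark arrays with DN4 in Alexa 647 and black lines are medians. The medians were 0.75 and 0.55 on the Alexa 647 arrays and lay between -0.25 and 0.13 on the others.

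Cox7c, a small subunit of the oxidase on chromosome 13, moved in opposite directions in the 2 groups. Its ratio was 0.63, 0.45, 0.69 and 0.46 on the 4 Lig+ arrays and -1.29, -1.29 and -0.82 on the 3 Lig- arrays. Every Lig+ array lay above 0, every Lig- array below it, and the groups did not overlap. Cox7c rose by 0.54 in Lig+ (1.46-fold, SE 0.11, adjusted p = 0.00848) and fell by 1.14 in Lig- cells (2.21-fold lower, SE 0.12, adjusted p = 0.000718). The Lig+ call was lost without Lig+ replicate 1 (0.41, adjusted p = 0.185). Its dye term was -0.03 (adjusted p = 0.86). Cox7c has 1 probe on the array.

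Cox7a2, the widely expressed form of subunit VIIa, rose in both groups, 0.76 in Lig+ (SE 0.080, adjusted p = 0.000582) and 0.57 in Lig- cells (SE 0.087, adjusted p = 0.00363). Its ratio was 1.36, 0.13, 0.33 and 0.23 on the Lig+ arrays and 0.95, 0.03 and 0.25 on the Lig- arrays. All 7 were above 0, with the 2 Alexa 647 arrays well above the rest. Its second probe gave 0.86 and 0.60 and passed in both groups. Without a dye term neither group passed on the first probe (adjusted p up to 0.119 in Lig+ and 0.304 in Lig-).

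Cox5a, a subunit on the matrix side of the enzyme, rose in both groups, at 0.65 in Lig+ (adjusted p = 0.000984) and 0.39 in Lig- cells (adjusted p = 0.0147). With the second scan day alone and no dye term it was at -0.03 in Lig+ and -0.10 in Lig- cells. Cox6c (0.44, adjusted p = 0.0075) and Cox6b1 (0.27, adjusted p = 0.0155) rose in Lig+ cells and were above 0 on all 4 Lig+ arrays. Cox8a (0.57, adjusted p = 0.0236), Cox6a1 (0.33, adjusted p = 0.0416) and Cox7b (0.26, adjusted p = 0.0268) rose in the fit but were below 0 on at least 2 of the 4 Lig+ arrays. Cox4i1, Cox5b and Cox7a2l did not pass in either group. Without Lig+ replicate 1, adjusted p in Lig+ was 0.165 for Cox6c, 0.0831 for Cox6b1, 0.349 for Cox8a, 0.607 for Cox6a1 and 0.419 for Cox7b, and without Lig+ replicate 3 it was 0.0519 for Cox6b1, 0.0533 for Cox8a, 0.0676 for Cox6a1 and 0.0567 for Cox7b. Cox6a1 and Cox7b were lost without Lig+ replicate 2 too (adjusted p 0.0865 and 0.0611), Cox6a1 without Lig- replicate 2 or 3 (adjusted p 0.0644 and 0.0514), and Cox6b1 without Lig- replicate 1 (adjusted p = 0.0549). The Lig- call of Cox5a was lost without any single Lig- array (adjusted p 0.125, 0.0567 and 0.0619). Ndufa4, once assigned to complex I and now to complex IV, rose in Lig+ cells by 0.68 (SE 0.16, adjusted p = 0.0176). It was below 0 on both Alexa 555 arrays of the first scan day (-0.08 in Lig+ and -0.36 in Lig-) and above 0 on the other 5, and its call was lost without Lig+ replicate 1, 3 or 4 (adjusted p 0.235, 0.056 and 0.053).

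Of 5 tissue isoforms measured, 0 rose and 1 fell in Lig+ cells, where 17.2% of all genes rose and 18.7% fell. In Lig- cells 0 of the 5 rose and 2 fell, where 16.2% of all genes rose and 14.7% fell. At an unadjusted p under 0.05 in limma's fit, 0 were higher in either group, and 1 and 2 lower. Cox6b2, the testis form of subunit VIb on chromosome 7, was the most strongly lowered member. Its ratio was -1.68, -1.73, -3.15 and -2.56 on the Lig+ arrays and -1.36, -1.51 and -2.27 on the Lig- arrays. All 7 values were below -1, and those of the second scan day were lower in both groups. Cox6b2 fell by 2.11 in Lig+ (4.32-fold lower, SE 0.25, adjusted p = 0.00103) and by 1.60 in Lig- cells (3.04-fold lower, SE 0.28, adjusted p = 0.00612). The Lig+ call held under all 20 alternatives; the Lig- call was lost without Lig- replicate 1 (-1.49, adjusted p = 0.113). Its widely expressed partner Cox6b1 stood at 0.27 and 0.06.

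Cox7a1, the heart and muscle form of subunit VIIa, fell in Lig- cells. Its ratio was 0.14, 0.13, -0.33 and -0.04 on the Lig+ arrays and -0.52, -0.60 and -0.76 on the Lig- arrays. All Lig- arrays lay below all Lig+ arrays. The change was -0.60 in Lig- (SE 0.10, adjusted p = 0.00558; -0.57 and 0.11 without Lig- replicate 1) and 0.02 in Lig+ cells (adjusted p = 0.866). Its partner Cox7a2 rose in both groups.

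Cox6a2, the heart and muscle form of subunit VIa, split the Lig- arrays. Its ratio was 1.44 and 1.35 on Lig- replicates 1 and 2, scanned on the first day, and -0.87 on Lig- replicate 3, scanned on the second. On the Lig+ arrays it lay between -1.21 and -0.86. No comparison of all arrays passed (-0.93 in Lig+, adjusted p = 0.112; 0.71 in Lig-, adjusted p = 0.266). On the first day alone the 2 groups differed by -2.59, and on the second, with Lig- replicate 3 as its only Lig- array, by -0.03. The B cell marker Cd79a split the Lig- arrays in the same way, at 0.99, 1.05 and 0.00, as did Ms4a1 at 0.39, 0.40 and -0.06. Others of that list did not: Cd79b was -0.94, -0.60 and -1.09 and fell (-0.87, adjusted p = 0.0145), and Pax5 lay between -0.09 and -0.01. Over the whole list of 5 B cell markers the mean ratio was 0.17, 0.24 and -0.24 on the Lig- arrays and from -0.18 to -0.01 on the Lig+ arrays, and all 5 were well above background in both channels on every array. Their part in the Cox6a2 values was not tested. Cox4i2, the lung and hypoxia form of subunit IV, and Cox8b, a muscle form that was well above background in DN4 RNA on only 2 arrays of each group, did not pass.

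Complex V is the ATP synthase. In Lig+ cells 2 of 15 genes rose and 1 fell, where 17.2% of all genes rose and 18.7% fell. In Lig- cells 0 of the 15 rose and 1 fell, where 16.2% of all genes rose and 14.7% fell. At an unadjusted p under 0.05 in limma's fit, 2 were higher and 1 lower in Lig- cells. Atp5b, the catalytic beta subunit of the F1 head, fell in both groups. Its ratio was 0.06, -0.61, -0.53 and -0.48 on the Lig+ arrays and -0.03, -0.59 and -0.70 on the Lig- arrays. The 2 Alexa 647 arrays were near 0 and the 5 others lay between -0.70 and -0.48. The change was -0.24 in Lig+ (SE 0.058, adjusted p = 0.0199) and -0.34 in Lig- (SE 0.064, adjusted p = 0.00843). Its 2 other probes did not pass, and gave 0.02 and -0.09 in Lig+ cells. Without Lig+ replicate 1, Lig+ replicate 3 or Lig- replicate 1, adjusted p in Lig+ was 0.225, 0.0541 and 0.0658, and in Lig- cells it was 0.139 without Lig- replicate 1.

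The 3 genes for the c ring encode the same mature protein behind different targeting peptides. Atp5g3 rose in Lig+ cells (0.37, SE 0.091, adjusted p = 0.019) and was above 0 on all 4 arrays. Atp5g1 and Atp5g2 stood at -0.34 and -0.25 in Lig+ and at -0.33 and -0.29 in Lig- cells without passing. The call of Atp5g3 was lost without Lig+ replicate 1, Lig+ replicate 4 or Lig- replicate 1 (adjusted p 0.167, 0.0521 and 0.0589). Among the stalk and membrane subunits Atp5k rose in Lig+ cells (0.42, adjusted p = 0.0466). That call ended on leaving out any array but Lig+ replicate 4 and Lig- replicate 2 (adjusted p from 0.0653 to 0.471). Atp5f1, now Atp5pb, showed the largest value of the enzyme in Lig- cells, 0.49, and did not pass (adjusted p = 0.11). One of its other probes rose in both groups, by 0.62 (adjusted p = 0.0278) and 1.03 (adjusted p = 0.00645), and the remaining one did not pass in either.

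Atp5s, on chromosome 12, fell in both groups. Its ratio was -1.34, -1.29, -1.59 and -1.72 on the Lig+ arrays and -0.77, -0.81 and -1.16 on the Lig- arrays. Every Lig+ array lay below every Lig- array. The change was -1.43 in Lig+ (2.70-fold lower, SE 0.10, adjusted p = 0.000111) and -0.88 in Lig- (1.84-fold lower, SE 0.11, adjusted p = 0.00161), and both held under all 20 alternatives. The second probe fell too, by 0.94 and 0.50. Cox4nb did not pass in either group (-0.10 in Lig+ and -0.16 in Lig-), though its second probe fell in Lig+ cells (-0.55, adjusted p = 0.0268).

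**Figure D3:**
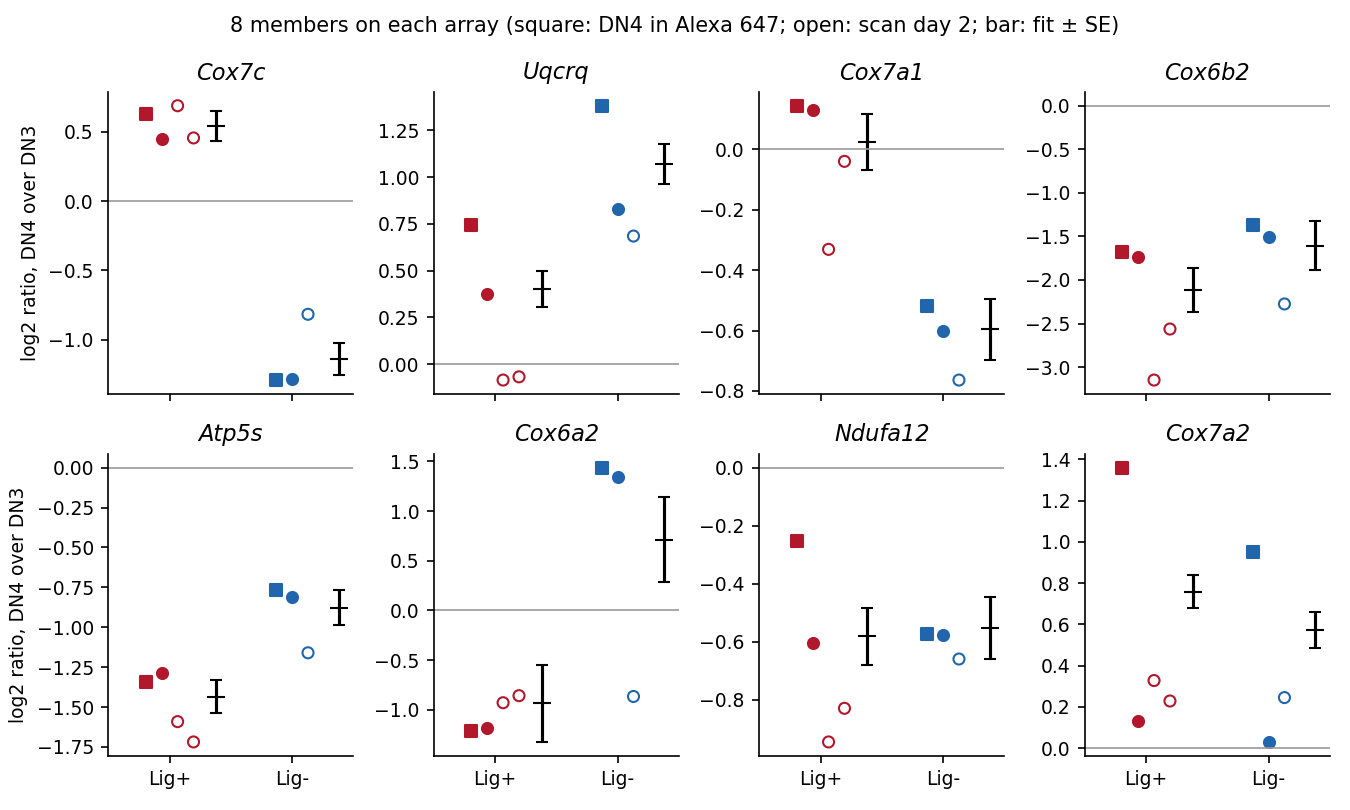
Log2 ratios of DN4 over DN3 for 8 members on each Lig+ (red) and Lig- array (blue); squares are arrays with DN4 in Alexa 647, open circles those of the second scan day, and black bars the fitted change with its SE. Cox7c separates the groups on opposite sides of 0, while Cox6a2 splits the Lig- arrays by scan day.

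The direct difference between Lig+ and Lig- cells passed for 3 of 81 genes (3.70%), while 11.2% of all genes passed (by probe, 4 of 110 and 10.9%). Of the genes, 2 were higher in Lig+ (4.57% of all genes) and 1 lower (6.60%). Of the probes, 2 were higher (4.57% of all probes) and 2 lower (6.35%). The difference reached 1 log2 unit for 1 member gene (4.87% of all genes) and 1 probe (4.56% of all probes). The median difference was 0.05 over the members and 0.00 over all genes. Cox7c was higher in Lig+ by 1.68 (3.21-fold, SE 0.15, adjusted p = 0.00215) and passed under all 20 alternatives, with adjusted p from 0.000208 to 0.0234. Within scan days the difference was 1.83 on the first and 1.39 on the second. With slide as a block it was 1.72 (adjusted p = 0.00332). The other 2 were smaller.

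Cox7a1 was higher in Lig+ by 0.62 (SE 0.13, adjusted p = 0.0324), with 0.70 on the first scan day and 0.58 on the second. Uqcrq was lower in Lig+ by 0.67 (log2 -0.67, SE 0.14, adjusted p = 0.0306), with -0.55 and -0.76 within the days. With slide as a block Cox7a1 stood at 0.61 (adjusted p = 0.0163) and Uqcrq at -0.62 (adjusted p = 0.016). The Cox7a1 call was lost with Agilent's processed signals, median centring and the authors' ratios (adjusted p from 0.0517 to 0.174). Median centring and a fit without a dye term ended the Uqcrq call (adjusted p up to 0.168). The Cox7a1 call was lost without Lig+ replicate 1 or 4 or any Lig- array (0.58 to 0.68, adjusted p from 0.0796 to 0.158), and the Uqcrq call without any array but Lig+ replicate 2 (-0.71 to -0.61, adjusted p from 0.073 to 0.139). The second probe of Atp5s passed (adjusted p = 0.0376) while its first did not (-0.55, adjusted p = 0.0586). With slide as a block 11 member probes passed, and 20.5% of all probes did. Calls gained there by a gene's first probe were Atp5e, Atp5l and Cox7b, higher in Lig+ (0.32, 0.44 and 0.41), and Atp5s, lower in Lig+ (-0.49, adjusted p = 0.0155). With slide as a random block 16 passed, and 23.8% of all probes.

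**Figure D4:**
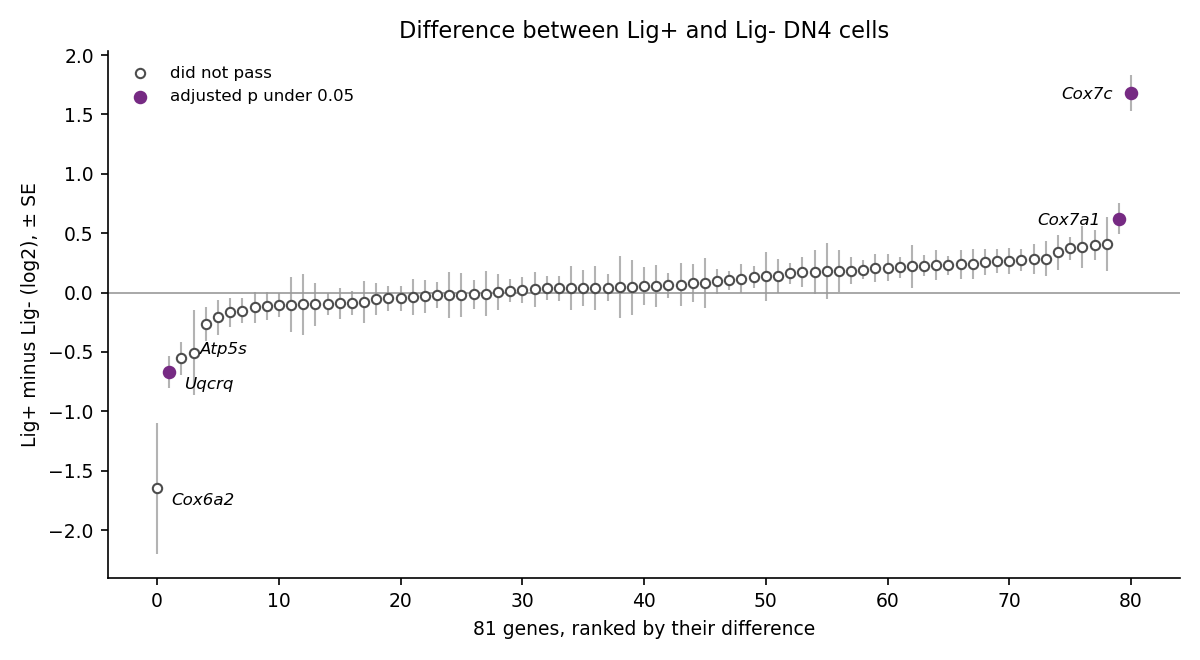
The 81 genes ranked by Lig+ minus Lig- (log2), with SE as grey bars; filled points passed at an adjusted p under 0.05. Cox7c stands alone at 1.68, and Cox6a2 has the lowest value with a wide SE and did not pass.

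Promoter letters are shown for the 4 members with the largest changes among those that RefSeq's table (GRCm38.p6) holds, so that the most changed genes can be compared. The table held 67 of the 82 genes. Each window of 300 bases runs from 250 before to 50 after the gene's start, and the 250 upstream bases are printed 5′ to 3′ on the gene's strand. Capitals mark CCAAT on either strand. Cox6b2 lies at chr7:4753095-4753344 (minus strand), Cox7c at chr13:86046796-86047045 (minus), Atp5s, under its present name Dmac2l, at chr12:69724695-69724944 (plus) and Cox7a2 at chr9:79759854-79760103 (minus).
Cox6b2: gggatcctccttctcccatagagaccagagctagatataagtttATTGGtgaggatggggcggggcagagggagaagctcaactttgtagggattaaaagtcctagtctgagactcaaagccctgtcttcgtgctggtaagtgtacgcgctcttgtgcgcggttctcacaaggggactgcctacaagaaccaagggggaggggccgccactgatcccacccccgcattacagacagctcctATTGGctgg
Cox7c: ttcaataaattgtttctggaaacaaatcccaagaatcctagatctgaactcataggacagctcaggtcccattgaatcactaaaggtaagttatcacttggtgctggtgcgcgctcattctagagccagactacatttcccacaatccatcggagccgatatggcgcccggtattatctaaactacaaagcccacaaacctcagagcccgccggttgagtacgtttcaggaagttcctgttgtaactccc
Dmac2l: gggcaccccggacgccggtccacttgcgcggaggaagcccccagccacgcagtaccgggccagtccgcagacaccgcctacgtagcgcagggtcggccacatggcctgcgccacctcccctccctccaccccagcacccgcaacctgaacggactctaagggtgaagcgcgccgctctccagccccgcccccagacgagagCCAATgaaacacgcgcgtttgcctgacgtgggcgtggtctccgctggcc
Cox7a2: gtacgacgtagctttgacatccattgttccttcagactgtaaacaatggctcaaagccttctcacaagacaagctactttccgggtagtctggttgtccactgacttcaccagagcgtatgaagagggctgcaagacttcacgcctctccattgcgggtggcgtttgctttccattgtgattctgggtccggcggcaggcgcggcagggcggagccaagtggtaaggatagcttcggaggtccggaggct
Motifs known in genes of the respiratory chain were searched on both strands of the whole windows. The palindromic consensus of NRF1 was in 5 of 67 member genes (7.46%) and in 1.07% of 27025 genes with a window. The GABP motif CCGGAAG was in 17 members (25.4%) and 9.93% of genes, and the YY1 motif AAGATGGC in 10 (14.9%) and 3.19%. CCAAT was in 28 (41.8%) and 41.1%. None of NRF1, GABP or YY1 letters were in the windows of the 4 genes above. Cox6b2 had 2 CCAAT matches in its printed stretch, beginning 206 and 9 bases before the start, and Dmac2l had 1, beginning 49 bases before it. Each of these windows held 1 more match after the printed stretch ends, and Cox7c and Cox7a2 held none. Since CCAAT alone was found in the 4, no motif overlapped another there.

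Other mitochondrial genes were counted from lists of names in the same fit. Over all genes 17.2% rose and 18.7% fell in Lig+ cells, and 16.2% rose and 14.7% fell in Lig- cells. The mitochondrial ribosome, which makes the subunits encoded in mitochondrial DNA, fell more often than it rose: in Lig+ cells 4 of 75 genes rose and 30 fell (median -0.18), and in Lig- cells 2 rose and 28 fell (median -0.21). Mrps25 fell in both (-1.02 and -1.23), as did Mrpl50 (-0.81 and -0.78), while Mrpl52 rose (1.30 and 1.04). Assembly factors and electron carriers gave 7 rises and 4 falls of 26 in Lig+ cells and 0 and 2 in Lig- cells (1 higher and 6 lower at an unadjusted p under 0.05). Atpaf1, which helps assemble the F1 head, fell in both (-0.69 and -0.58), and so did Nubpl, which places iron-sulfur clusters in complex I (-0.44 and -0.75).

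Among 17 regulators of mitochondrial biogenesis 3 rose and 5 fell in Lig+ cells, and 3 rose and 7 fell in Lig- cells. Polg, the mitochondrial DNA polymerase, rose in both groups, 2.03 in Lig+ and 2.58 in Lig-. Esrra, a nuclear receptor, and Nrf1, both activators of respiratory genes, rose in both groups (0.64 and 0.85, then 0.26 and 0.40). Peo1, the helicase Twinkle, fell in both (-0.99 and -0.48), and Tfb1m, a methylase of mitochondrial ribosomal RNA, fell in both (-0.80 and -0.78). Ppargc1b, a coactivator of respiratory genes, fell in both as well (-0.77 and -0.78). Of 19 genes of the citric acid cycle and pyruvate dehydrogenase, 4 rose and 4 fell in Lig+ and 1 rose and 4 fell in Lig- cells. Suclg2 fell in both (-1.34 and -1.15), Idh2 fell in Lig+ (-1.27), and Pdha1 rose in both (0.60 and 0.55). No subunit encoded in mitochondrial DNA was matched by name to a probe.

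**Figure D5:**
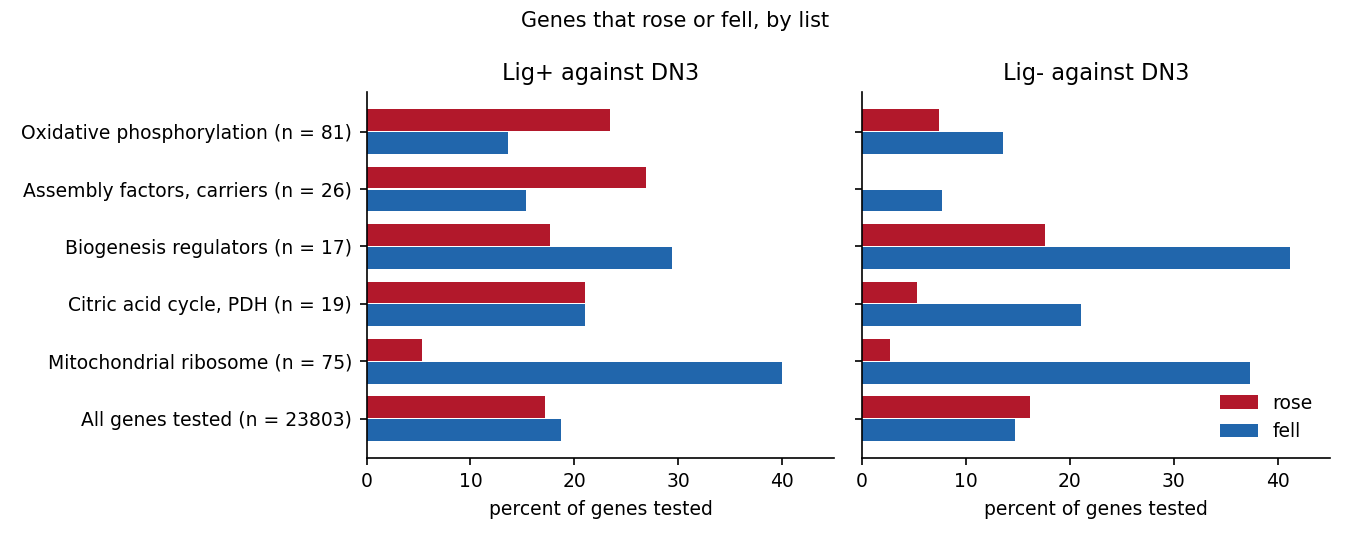
Percent of genes tested that rose (red) or fell (blue) at an adjusted p under 0.05, for the members, 4 other lists and all 23803 genes, in Lig+ cells (left) and Lig- cells (right). Falls outnumber rises most in the mitochondrial ribosome, 30 against 4 in Lig+ and 28 against 2 in Lig-.

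Different probes of a gene did not always move alike. Of the 24 member genes with several measured probes, 8 had probes of opposite sign in at least 1 group (Atp5a1, Atp5b, Atp5h, Ndufa11, Ndufc1, Ndufs4, Ndufs6 and Sdhc). The brightest probe was used, and the sign is uncertain for all of these but Sdhc, whose second probe was not well above background in DN3 RNA and gives no sign. The probes of Atp5s, Cox7a2, Ndufa12 and Uqcrq shared 1 sign in each group.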

How the data were processed

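Members and lists were chosen with earlier results of these data known. Per the file headers, each deposited spot intensity came from Agilent Feature Extraction, 9.5.1.1 on the first scan day and 9.5.3.1 on the second (the submitters' processing notes name the former). A table the authors deposited for the series gives log10 ratios that equal the scanner log ratio turned to DN4 over DN3 (largest difference 4.87e-08). Per the labels, log2 ratios here run DN4 over DN3, with direction taken from the dyes named for each channel.

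With limma 3.58.1 in R 4.3.3, mean signals were corrected by normexp (offset 50) on median local background and normalised by loess within arrays. Control spots had weight 0 and were then left out, spots flagged as outliers (0.544%) were treated as missing, and a probe's spots were averaged. The lmFit and eBayes model held group and dye orientation (4 residual and 2.36 prior degrees of freedom). No spot was saturated. Replicate numbers only name the samples. Shared RNA between dye-swapped arrays is not stated and would leave p too small. The script was tested on simulated data. The number of arrays limits the precision.

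Named genes were the 10 largest rises and falls that passed with 1 direction on every array of the group, the leading genes of each role, isoform families, the Sdh genes and genes whose probes disagree. Alternatives covered background correction, normalisation, filter, dye term, slide, scan day, probe choice, the authors' values and each array left out.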

Additional observations from a re-analysis of the deposited data

Results flagged for a closer look

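Cox7c (1.68), Cox7a1 (0.62) and Uqcrq (-0.67) differed between Lig+ and Lig- cells on the log2 scale by limma's contrast of both groups, with adjusted p of 0.00215, 0.0324 and 0.0306. Cox7a2 on Lig+ replicate 1 stood at 1.36, apart from 0.13 to 0.33 on the other 3 Lig+ arrays. Uqcrh on the same array stood at 1.21, apart from -0.56 to -0.29. In the Lig+ group, no other array carried Alexa 647 on its DN4 RNA. Outlying arrays were looked for in 46 genes in the Lig+ group, and 2 stood apart. A chance rate of about 1 in 20 would need arrays alike in dye orientation, which the Lig+ arrays were not.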

How the results depend on the processing

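The cause of each change below was not tested. Of the calls against DN3, 3 of 30 in Lig+ and 3 of 17 in Lig- passed under all 20 alternatives, and 1 of 3 between the groups did. In Lig+ cells 39 member probes passed; the count was 20 each for median centring and for Lig+ arrays alone, 23 without a dye term, 73 with scan day 1 alone, 60 with day as a fixed term, 23 with day as a random block, and from 6 to 38 with an array left out. Shares of all probes moved too, from 36.6% to 31.8% with median centring, 64.3% on day 1 and 48.1% with day fixed. That share was 25.4% with Lig+ arrays alone and 29.9% with day random. Without a dye term it was 38%, no lower than 36.6%, whereas the members' count fell from 39 to 23. In Lig- cells it was 27, and 10 with Lig- arrays alone, 75 on day 1, 48 with day fixed, and from 4 to 31 with an array left out (all probes 31.8%, then 21.2%, 63.8%, 41.1% and, without Lig- replicate 1, 11.1%). Between groups it was 4, and 1 with median centring, 2 each with processed signals, the authors' ratios and no dye term, 44 on day 1, 11 with day fixed, 8 with day random, 11 with slide fixed, 16 with slide random, and from 1 to 4 with an array left out; of all probes 10.9% passed, 6.92% with median centring, 8.38% with processed signals, 10.3% without a dye term, 44.0% on day 1, 22.1% with day fixed and 19.3% with day random. The members' median was -0.15 in Lig+ and -0.10 in Lig- with day 2 alone and no dye term, and -0.12 in Lig- with median centring. That centring also gave medians of -0.15 and -0.14 for assembly factors, -0.14 for the citric acid cycle in Lig-, -0.33 for biogenesis and -0.30 for the ribosome in Lig-; citric acid cycle calls were 4 in Lig+ and 1 between groups, and biogenesis calls 0 between groups (2 in limma's loess fit). The count of widely expressed complex IV genes that rose was added after seeing the data. In Lig+ it was 8, and 5 with processed signals, 4 with Lig+ arrays alone, 3 without a dye term, 5 with median centring, 4 on day 2 with no dye term, 4 with day random, 5 with the authors' ratios, and from 2 to 8 with an array left out. In Lig- it was 2, and 1 with Lig- arrays alone, 0 on day 2 with no dye term, with all arrays and no dye term or with median centring, 4 with day fixed, 1 with day random, and from 1 to 2 with an array left out. With day 2 alone and no dye term the sign turned in Lig+ for Cox5a (-0.028), Cox6a1 (-0.54), Cox7b (-0.23), Cox8a (-0.28), Ndufa13 (-0.032), Sdha (0.30), Uqcrh (-0.42) and Uqcrq (-0.076), and in Lig- for Cox5a (-0.10), Cox6a2 (-0.87) and Uqcrh (-0.12). Without a dye term it turned in Lig+ for Cox6a1 (-0.026) and Uqcrh (-0.024). No paired analysis was possible because the labels number no replicates, so pairing by number has no basis; the slide, shared by a Lig+ and a Lig- array on 3 of 4 slides, served as the block between groups. Slide as a fixed block was not run against DN3.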
